A study of Mus musculus with 8 samples.

Results

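The genes described here are 10 genes of the vascular endothelium, the cell layer that lines the aorta, taken by symbol from the 35896 genes of an RNA-sequencing table of mouse aortas. Pecam1, Cdh5, Vwf, Kdr and Tek mark endothelial identity. Icam1, Vcam1, Sele, Selp and Edn1 are genes that activated endothelium is known to express more strongly. All 10 passed the filter on low counts, which left 17182 genes for testing. At the end of an angiotensin II (AngII) infusion and 2 or 3 weeks later, no member passed the test in any comparison by edgeR. None did by DESeq2 or limma-voom. By edgeR, 5.1% of all genes tested differed from untreated mice at the end of the infusion, 0% after 2 weeks and 0.285% after 3 weeks. Between the AngII groups 0% to 1.61% passed, so that a count of 0 in 10 genes lies near these shares. Summed levels of the 5 identity genes ranged from 866 to 1161 CPM (counts scaled to a common normalized library size) over the 8 libraries, while the sum of 6 smooth muscle markers ranged from 1679 to 9213 CPM.

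Endothelial cells are held together by PECAM-1 and VE-cadherin, respond to vascular endothelial growth factor and angiopoietins through the receptors encoded by Kdr and Tek, and store von Willebrand factor for release into blood. Inflammatory signals make these cells display selectins, on which leukocytes roll, and ICAM-1 and VCAM-1, to which leukocyte integrins bind firmly. Endothelin 1, encoded by Edn1, is a vasoconstrictor peptide released by endothelium. Angiotensin II is a peptide hormone that raises blood pressure and is known to promote vascular inflammation.

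The 8 libraries came from 16 male C57BL6 mice, 2 libraries for each of 4 groups, and each library held the pooled aortic tissue of 2 mice. The mice were 11 weeks old when osmotic minipumps were implanted, and the pumps delivered AngII at 2.8 mg/kg/d for 2 weeks. Aortas were taken when the infusion ended (AngII), 2 weeks after it (AngII+2W) or 3 weeks after it (AngII+3W), and CTRL libraries came from untreated age-matched littermates whose labels give no time of sacrifice. The study judged endothelial activation by staining ICAM-1 in carotid sections, and the comparisons below ask whether transcripts of this gene and of its functional relatives differed in the aorta. RNA of a whole vessel piece was sequenced, so that fewer endothelial cells and less RNA per cell cannot be told apart. Since a library is a pool of 2 mice, p-values measure the spread between pools.

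Counts summed to between 18130441 and 21498200 in a library, and 3 counts, taken as the floor of detection, were worth 0.140 to 0.162 CPM. Mitochondrial genes held 8.15% to 18.3% of the counts. In AngII+3W replicate 1, 6 skeletal muscle markers held 0.219% of the counts, against at most 0.00721% in the other libraries. The same library had the highest summed cardiac muscle markers, 5092 CPM, against 423 CPM in AngII+3W replicate 2. Values of AngII+3W are therefore given for each library. The 20 other endothelial genes of a separate list were all above the floor in every library, as were the 5 identity genes.

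On the GRCm38 build, Pecam1 lies on chromosome 11 (106654217 to 106750628, reverse strand), Cdh5 on chromosome 8 (104101625 to 104144511, forward), Vwf on chromosome 6 (125546774 to 125686679, forward), Kdr on chromosome 5 (75932827 to 75978458, reverse) and Tek on chromosome 4 (94739289 to 94874976, forward). Icam1 lies on chromosome 9 (21015985 to 21028817, forward), Vcam1 on chromosome 3 (116109949 to 116129688, reverse) and Edn1 on chromosome 13 (42301476 to 42307990, forward). The selectin genes Sele (164048234 to 164057677) and Selp (164115264 to 164150026) are neighbours on the forward strand of chromosome 1, with 57586 bases between them. Noncoding genes on the opposite strand overlap Cdh5, Icam1, Vcam1, Selp and Edn1, none of which has a row in the table. The strand setting of the counting is not given in the sources used here, so that their reads cannot be told apart from those of these 5 members. In a search for shared stretches of 100 or more bases at 95% identity, the longest match of Icam1 was with Gm47079 (511 bases). That of Selp was with Gm16548 (325 bases), and both are among these overlapping genes. The other members had no such match.

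Promoter sequence was matched for 6 of the 10 members, Kdr, Tek, Icam1, Sele, Selp and Edn1 (RefSeq, GRCm38.p6). The 250 bases before the transcription start are shown for Icam1 and Sele, whose products leukocytes bind, because inflammatory induction of both genes is known to run through NF-κB, a transcription factor that recognizes κB sites. Tek is shown beside them as an identity gene whose window held none of the patterns searched. Capitals mark matches to GGANNNTCC, a κB-like pattern that reads the same on both strands. The windows are chr9:21015690-21015939 for Icam1, chr1:164047984-164048233 for Sele and chr4:94739039-94739288 for Tek, all on the forward strand and written 5′ to 3′.
Icam1: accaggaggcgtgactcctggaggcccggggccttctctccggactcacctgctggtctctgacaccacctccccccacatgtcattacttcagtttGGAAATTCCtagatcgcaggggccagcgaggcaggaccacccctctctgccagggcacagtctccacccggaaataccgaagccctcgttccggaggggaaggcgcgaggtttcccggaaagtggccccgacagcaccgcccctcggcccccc
Sele: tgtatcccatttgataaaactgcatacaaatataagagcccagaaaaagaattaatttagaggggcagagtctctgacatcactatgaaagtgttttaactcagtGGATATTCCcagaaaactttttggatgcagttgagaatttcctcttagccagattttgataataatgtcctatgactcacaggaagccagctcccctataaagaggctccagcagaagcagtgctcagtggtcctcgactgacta
Tek: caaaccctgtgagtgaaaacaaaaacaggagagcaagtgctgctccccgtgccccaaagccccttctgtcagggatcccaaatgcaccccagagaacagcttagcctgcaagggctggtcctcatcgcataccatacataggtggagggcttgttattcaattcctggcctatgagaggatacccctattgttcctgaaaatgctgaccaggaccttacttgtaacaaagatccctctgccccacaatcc
Of the 6 members, Icam1 and Sele held this pattern, at 153 to 145 and at 145 to 137 bases before the start. The pattern occurs in 7.27% of the 32841 windows of this length in the table. The longer NF-κB consensus (7.25% of windows), whose matches can overlap those of the shorter pattern, had a match in Kdr. TGANTCA, the AP-1 pattern (6.75% of windows), and AGGAAG, an ETS pattern (29.5%), were each found in Sele and Selp on searching both strands. None of the 6 held the GATA pattern AGATAA (9.99%), and TATAAA (12.4%) was found in Sele. These matches describe the letters of the windows.

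Levels between genes were compared as CPM per kb of the longest coding transcript. Identity genes stood at the top, with medians over the 8 libraries of 70.2 CPM per kb for Pecam1, 61.6 for Cdh5, 41.3 for Kdr, 22.4 for Vwf and 14.3 for Tek. The adhesion molecules of firm leukocyte arrest followed, with 10.9 CPM per kb for Vcam1 and 6.49 for Icam1. Edn1 (2.16 CPM per kb), Selp (2.11) and Sele (0.526) were lowest. Neighbours in this order overlapped between libraries except at 2 places. Every library of Icam1 was above every library of Edn1, and every library of Selp was above every library of Sele. Sele varied most, with 6.05-fold between its highest and lowest library, and Pecam1 varied least, with 1.46-fold.

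**Figure D1:**
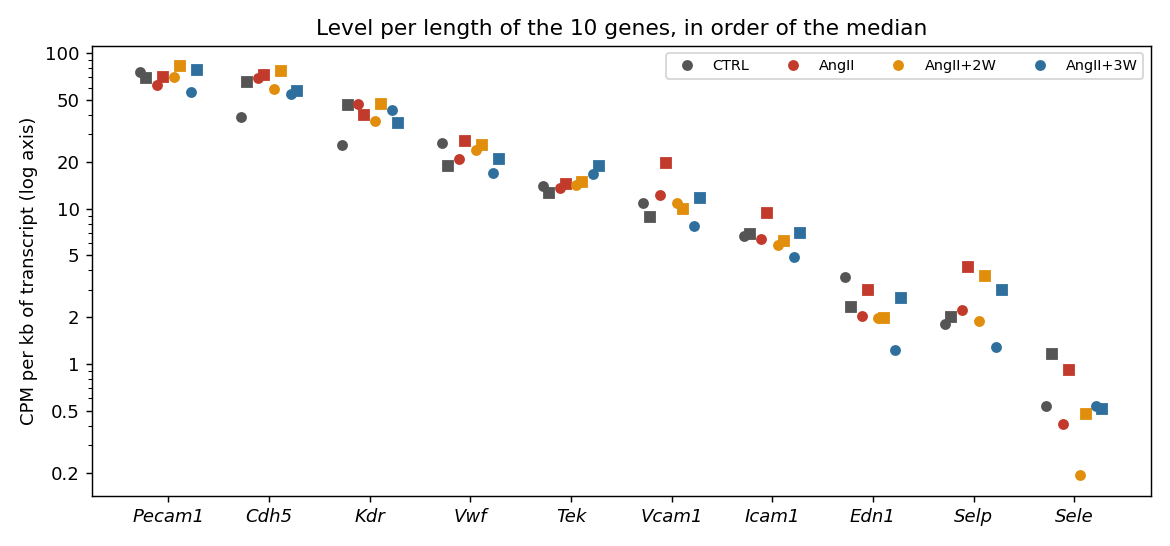
Level of each of the 10 genes in each library, in CPM per kb of transcript on a log axis, with genes in the order of their medians, colours for the 4 groups, circles for replicate 1 and squares for replicate 2. Medians run from 70.2 for Pecam1 to 0.526 for Sele, and the clouds of most neighbouring genes overlap.

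Pecam1, the gene of an adhesion molecule at endothelial junctions, had 262 and 237 CPM in the CTRL libraries, 215 and 242 in the AngII libraries, 241 and 283 in the AngII+2W libraries, and 194 and 268 in the AngII+3W libraries. Its values overlapped between all groups. The fitted fold relative to CTRL was 0.918 (95% interval 0.681 to 1.24) in AngII, 1.05 (0.780 to 1.42) in AngII+2W and 0.927 (0.688 to 1.25) in AngII+3W. None of these passed the test (FDR 0.775, 0.934 and 0.855).

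Cdh5 encodes VE-cadherin, the cadherin of endothelial adherens junctions. Its level was 155 and 258 CPM in the CTRL libraries, 276 and 287 in the AngII libraries, 234 and 304 in the AngII+2W libraries, and 217 and 227 in the AngII+3W libraries. Both AngII libraries lay above both CTRL libraries, while the later groups overlapped with CTRL. Against CTRL, the AngII libraries differed by 0.45 on the log2 scale (standard error 0.242, FDR 0.361), the AngII+2W libraries by 0.38 and the AngII+3W libraries by 0.10. The value in AngII was 0.12 without CTRL replicate 1 and 0.86 without CTRL replicate 2. CTRL replicate 1 was the lowest library, and the gap between the CTRL libraries was 0.74 on the log2 scale, against a median gap of 0.24 for 1253 genes within 2-fold of its level.

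Kdr, which encodes the main signaling receptor for vascular endothelial growth factor in endothelium, had 152 and 273 CPM in the CTRL libraries, 278 and 235 in the AngII libraries, 215 and 279 in the AngII+2W libraries, and 254 and 209 in the AngII+3W libraries. CTRL replicate 1 was again lowest, 0.84 below replicate 2 on the log2 scale, and the groups overlapped. Vwf, the gene of von Willebrand factor, went the other way within CTRL, with 234 CPM in replicate 1 and 166 in replicate 2. Its other values were 183 and 241 CPM at the end of the infusion, 210 and 226 in AngII+2W libraries, and 148 and 185 in AngII+3W libraries. Both AngII+3W libraries of Vwf were below both AngII+2W libraries, with a log2 difference of -0.39 (standard error 0.215, FDR 0.651). Log2 fold changes against CTRL were 0.27, 0.22 and 0.12 for Kdr and 0.09, 0.13 and -0.26 for Vwf, in the order of time since the infusion, with FDR values of 0.658 or more.

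Tek encodes TIE2, the receptor of angiopoietins, and was the member with the smallest p against CTRL. It had 64.6 and 58.4 CPM in the CTRL libraries, 63.2 and 66.5 in the AngII libraries, 66.4 and 68.5 in the AngII+2W libraries, and 77.7 and 87.3 in the AngII+3W libraries. Both AngII+3W libraries were above all 6 libraries of the other groups. Group means were 61.5 ± 4.33 CPM in CTRL and 82.5 ± 6.77 CPM in AngII+3W (SD, n = 2). The log2 fold change of 0.42 (standard error 0.119, fold 1.34, 95% interval 1.11 to 1.63) had an unadjusted p of 0.00789 and an FDR of 0.199 by edgeR's quasi-likelihood test and did not pass. Against AngII the difference was 0.35 (unadjusted p of 0.0202, FDR 0.188), and against AngII+2W 0.29 (unadjusted p of 0.0411, FDR 0.539). As a share of the summed identity genes, Tek was 8.72% and 8.93% in AngII+3W and 5.89% to 7.45% in the other 6 libraries. It kept a log2 fold change between 0.28 and 0.50 when each library was left out in turn, and without AngII+3W replicate 1, the library with the skeletal muscle signal, it was 0.50 (FDR 0.231).

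Icam1, the gene of the adhesion molecule that the study stained, had 16.9 and 17.4 CPM in the CTRL libraries, 16.0 and 23.7 in the AngII libraries, 14.7 and 15.7 in the AngII+2W libraries, and 12.4 and 17.6 in the AngII+3W libraries. AngII replicate 2 was the highest library and AngII replicate 1 was below both CTRL libraries, so that these groups overlapped. Both AngII+2W libraries were below CTRL by value, with 293 against 346 counts in the nearest libraries, which is no separation at this depth. The fitted fold relative to CTRL was 1.16 in AngII (95% interval 0.804 to 1.68, FDR 0.670), 0.887 in AngII+2W (0.612 to 1.28, FDR 0.856) and 0.877 in AngII+3W (0.605 to 1.27, FDR 0.781). In AngII the log2 fold change of 0.22 became -0.09 without AngII replicate 2. Relative to the summed identity genes, Icam1 was 1.58% and 2.21% in AngII and 1.95% and 1.75% in CTRL.

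Vcam1, whose product binds the leukocyte integrin VLA-4, had 37.5 and 30.4 CPM in the CTRL libraries, 42.4 and 68.4 in the AngII libraries, 37.9 and 34.2 in the AngII+2W libraries, and 26.8 and 40.7 in the AngII+3W libraries. By value, both AngII libraries lay above all 6 libraries of the other groups, with 786 against 757 counts in the nearest. The means were 34.0 ± 5.04 CPM in CTRL and 55.4 ± 18.3 CPM in AngII (SD, n = 2). This was a 1.63-fold difference (95% interval 1.06 to 2.51), a log2 fold change of 0.71 with a standard error of 0.268, and it did not pass at an unadjusted p of 0.0307 and an FDR of 0.189 by edgeR's quasi-likelihood test. AngII+3W minus AngII was -0.72 on the log2 scale (unadjusted p of 0.0294, FDR 0.222), and AngII+2W minus AngII was -0.62 (unadjusted p of 0.0502, FDR 0.333). Without AngII replicate 2 the log2 fold change of AngII against CTRL was 0.32. As a share of the summed identity genes, Vcam1 was 4.18% and 6.38% in AngII and 4.33% and 3.06% in CTRL, so that these groups overlapped. The shares of 3.92% and 2.95% in AngII+2W and of 3.01% and 4.16% in AngII+3W were below both AngII libraries, the last by little.

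The selectins had few counts. Selp, which encodes the P-selectin that endothelium and platelets store in granules, had 6.19 and 6.92 CPM in the CTRL libraries, 7.61 and 14.4 in the AngII libraries, 6.53 and 12.6 in the AngII+2W libraries, and 4.41 and 10.3 in the AngII+3W libraries. The AngII libraries were both above CTRL, replicate 1 by little, and the later groups overlapped with CTRL. Its log2 fold change in AngII was 0.75 with a standard error of 0.479 and an FDR of 0.444, and it was 0.22 without AngII replicate 2 and 1.14 without AngII replicate 1. Sele, the gene of E-selectin, held only 12 to 72 counts in a library.

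Sele was at 1.56 and 3.39 CPM in the CTRL libraries, 1.19 and 2.65 in the AngII libraries, 0.560 and 1.40 in the AngII+2W libraries, and 1.56 and 1.50 in the AngII+3W libraries. Both AngII+2W libraries were below both CTRL libraries by value, but the nearest held 26 and 32 counts, which is no separation at this depth. The fold was 0.392 (95% interval 0.152 to 1.01), a log2 fold change of -1.35. The unadjusted p was 0.0525 and the FDR 0.476 by edgeR. The log2 fold change ranged from -2.14 to -0.68 with 1 library left out. In AngII the 95% interval of the fold ran from 0.319 to 1.91.

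Edn1 had 7.75 and 4.94 CPM in the CTRL libraries, 4.32 and 6.35 in the AngII libraries, 4.25 and 4.24 in the AngII+2W libraries, and 2.63 and 5.69 in the AngII+3W libraries. CTRL replicate 1 was the highest library and AngII+3W replicate 1 the lowest. Its log2 fold changes against CTRL were -0.25 at the end of the infusion, -0.58 after 2 weeks and -0.61 after 3 weeks, with standard errors of 0.387 to 0.393 and FDR values of 0.573 or more.

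**Figure D2:**
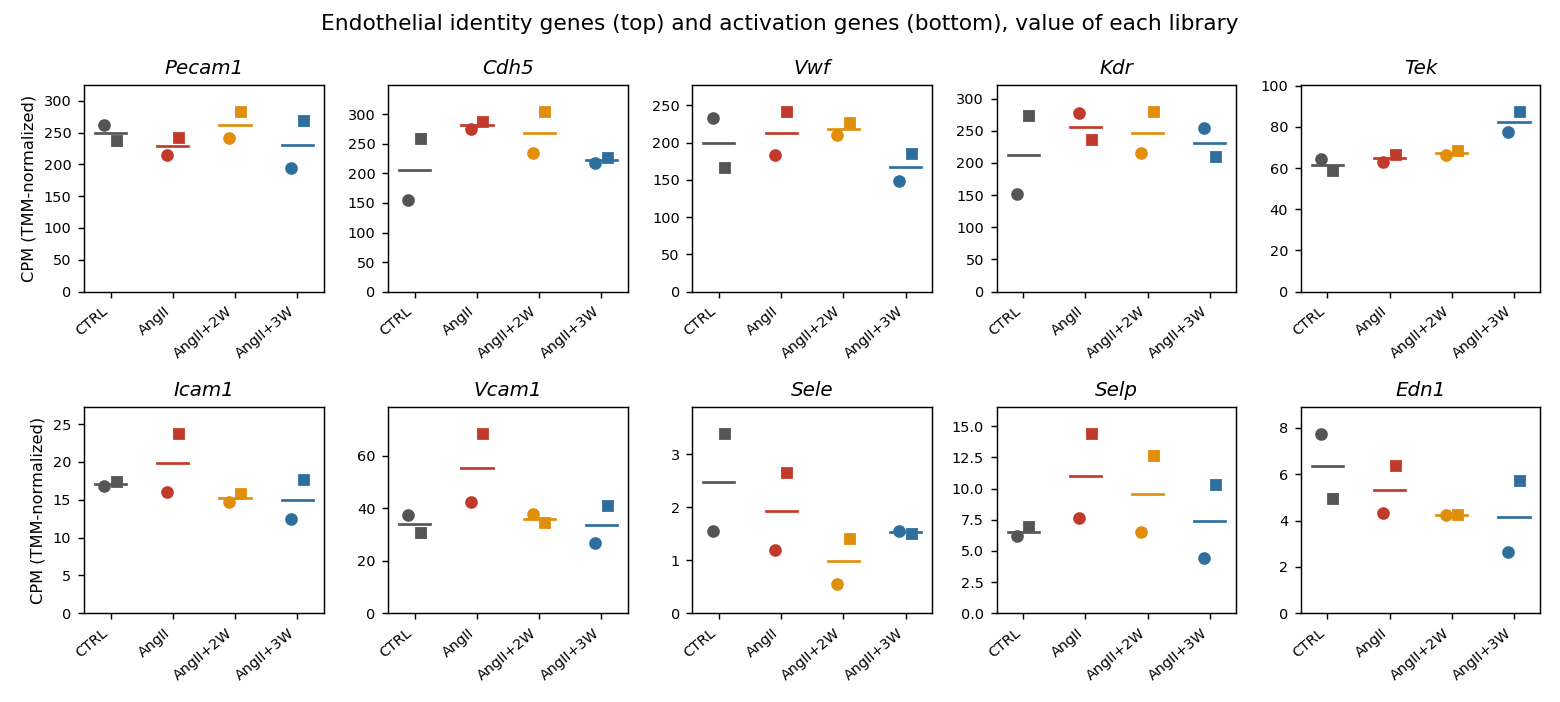
Level of each gene in each library in TMM-normalized CPM, on axes that start at 0, identity genes in the upper row and activation genes in the lower row. Circles are replicate 1, squares are replicate 2, and lines are the mean of 2 libraries. Tek in AngII+3W (77.7 and 87.3) and Vcam1 in AngII (42.4 and 68.4) lie above all libraries of the other groups.

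At the end of the infusion, 0 of the 10 members differed from CTRL at an FDR below 0.05 by edgeR's quasi-likelihood test, and 877 of the 17182 genes tested did (5.1%). Vcam1 was the 1 member with an unadjusted p below 0.05, which 20.2% of all genes had. By value, Cdh5, Vcam1 and Selp, 3 of the 10 members, had both libraries above both CTRL libraries, as did 24.4% of all genes. For Selp the nearest libraries were at 7.61 and 6.92 CPM (141 and 147 counts), which is no separation at this depth. Estimates were above 0 for 7 members, and for 48.9% of all genes. No member had both libraries below CTRL, and 24.9% of all genes did. The median log2 fold change was 0.09 for the identity genes and -0.01 for all genes, and scaling the libraries to 20 other endothelial genes shifted these to -0.09 and -0.17. The median of the activation genes was 0.22, and it was -0.0944 without AngII replicate 2.

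In AngII+2W, 0 members and 0 of all genes (0%) passed by edgeR's quasi-likelihood test, with 1838 genes (10.7%) and 0 members at an unadjusted p below 0.05. By DESeq2 373 genes passed, and by the likelihood ratio test 420, no member among them. Estimates were above 0 for 7 members and 50% of all genes. By value, Tek lay wholly above CTRL (21.7% of all genes did), and Icam1, Sele and Edn1 lay wholly below (22.2%). The nearest libraries were at 66.4 and 64.6 CPM for Tek (1422 and 1325 counts) and 15.7 and 16.9 for Icam1 (293 and 346 counts). They were at 4.25 and 4.94 for Edn1 (91 and 105 counts), and held 26 and 32 counts for Sele. These gaps are no separation at this depth. Medians were 0.13 for the identity genes, -0.17 for the activation genes and 0.00 for all genes.

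In AngII+3W, 0 members passed and 49 of all genes (0.285%) did, and estimates were above 0 for 4 members and 53.6% of all genes. Tek was the 1 member at an unadjusted p below 0.05 (12.5% of all genes). It lay wholly above CTRL, as did 19.8% of all genes, and Sele was below by value (18.3% of all genes), but with 1.5588 CPM (29 counts) in AngII+3W replicate 1 against 1.5591 CPM (32 counts) in CTRL replicate 1, which is no separation at this depth. The medians were 0.10 for the identity genes, -0.19 for the activation genes and 0.03 for all genes. Without AngII+3W replicate 1, 0 members passed, and the medians were 0.10 for the identity genes and 0.04 for the activation genes.

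Comparisons among the AngII groups ask whether levels moved after the infusion stopped. Between AngII+2W and AngII, 0 members and 28 genes (0.163%) passed, and 0 members had an unadjusted p below 0.05, which 15% of all genes had. Estimates were above 0 for 3 members and 49.6% of all genes. Icam1, Vcam1 and Edn1 were wholly lower in AngII+2W by value (27.5% of all genes), and none was wholly higher (26.8%). The nearest libraries were at 15.7 and 16.0 CPM for Icam1 and at 4.25 and 4.32 CPM for Edn1, which is no separation at this depth. The activation genes had a median log2 difference of -0.39, which was -0.0736 without AngII replicate 2. All 5 were negative with all libraries, and Selp turned to as much as 0.33 with 1 library left out. Between AngII+3W and AngII, 0 members and 276 genes (1.61%) passed, Tek and Vcam1 had an unadjusted p below 0.05 (17.8% of all genes), and the activation genes had a median of -0.41, which was -0.0549 without AngII replicate 2 and -0.17 without AngII+3W replicate 1. All 5 were again negative with all libraries, and Sele and Edn1 turned to as much as 0.36 and 0.0979 with 1 library left out. Estimates were above 0 for 2 members and 54% of all genes. Tek was wholly higher (24.8% of all genes), and Cdh5 and Vcam1 were wholly lower (24.2%), Vcam1 with 757 against 786 counts in the nearest libraries. These contrasts share the AngII libraries, so that their values are not independent of each other or of AngII against CTRL. Between AngII+3W and AngII+2W, 0 members and 0 genes (0%) passed, 1518 genes (8.83%) and 1 member, Tek, had an unadjusted p below 0.05, and DESeq2 called 221 genes. Estimates were above 0 for 2 members and 52.1% of all genes. Tek and Sele were wholly higher there (20.7% of all genes), Sele with 28 against 26 counts in the nearest libraries, and Cdh5 and Vwf wholly lower (19.7%).

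**Figure D3:**
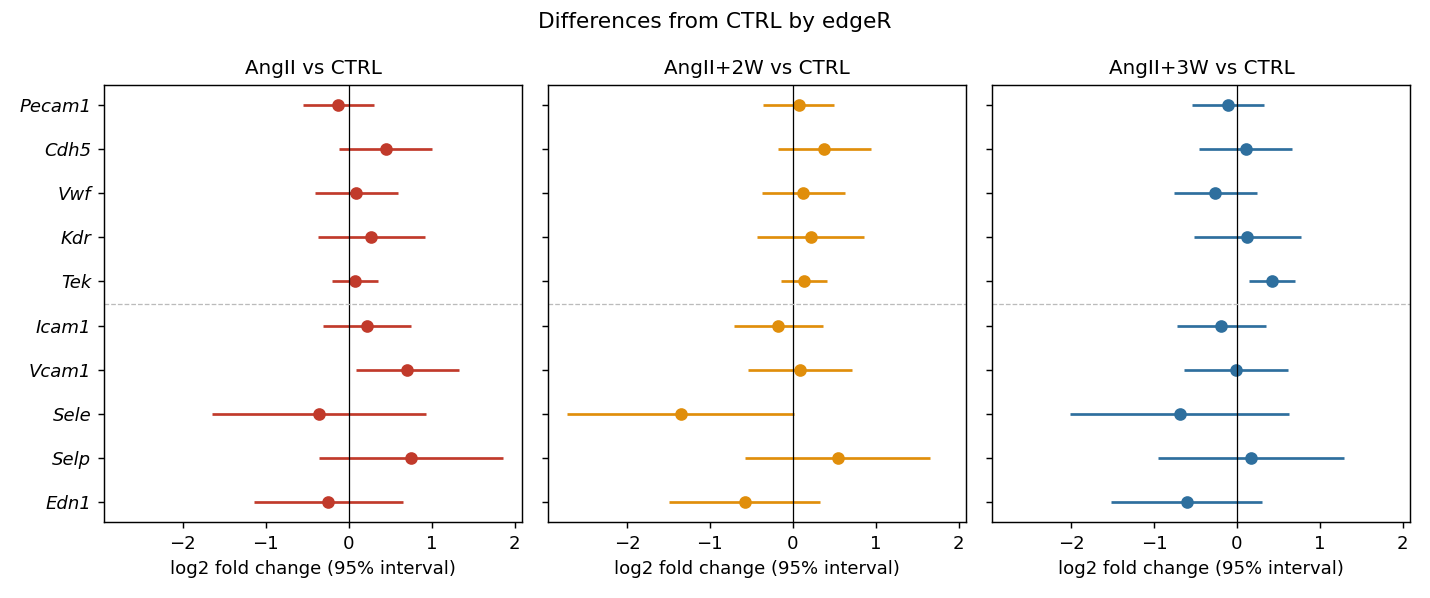
Log2 fold change of each gene against CTRL with its 95% interval from edgeR, 1 panel for each AngII group, identity genes above the dashed line and activation genes below it. The interval leaves out 0 for Vcam1 in AngII and for Tek in AngII+3W, without adjustment for the genes tested, and intervals are widest for Sele.

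The standard error of a log2 fold change was smallest for Tek, 0.119, and largest for Sele, 0.557 to 0.607, over the 6 comparisons. In AngII, a rise of Icam1 by more than 1.68-fold and one of Pecam1 by more than 1.24-fold lay outside the 95% intervals, while for Selp a rise of up to 3.64-fold lay inside. Within AngII, replicate 2 was higher in all 5 activation genes, by a median of 0.68 on the log2 scale, and in 4 of the 5 identity genes, by a median of 0.07.

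Of 20 other endothelial genes, among them Tie1, Erg, Nos3 and Cldn5, 0 passed against CTRL in any of the 3 groups by the edgeR test. Their median log2 fold changes were 0.15 in AngII, with 5 genes at an unadjusted p below 0.05, all of them higher (20.2% of all genes in either direction), 0.06 in AngII+2W, with 0 genes, and 0.05 in AngII+3W, with 1 gene. Of 17 ligands and partners of the members, such as vascular endothelial growth factors, angiopoietins and endothelin receptors, 0 passed against CTRL, again near the shares of all genes. In AngII, 2 were higher and 2 lower at an unadjusted p below 0.05 (20.2% of all genes). Their medians were 0.05 at the end of the infusion, -0.04 after 2 weeks and -0.10 after 3 weeks.

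Of 15 further adhesion and activation genes, 14 were tested and 1 passed, in AngII against CTRL, where 5.1% of all genes did. Mcam, which encodes the adhesion molecule CD146 of endothelium and other vessel wall cells, had 386 and 392 CPM in the CTRL libraries, 161 and 173 in the AngII libraries, 236 and 217 in the AngII+2W libraries, and 146 and 209 in the AngII+3W libraries. All AngII-treated libraries were below both CTRL libraries. Mcam fell in AngII by 1.22 on the log2 scale (standard error 0.183, FDR 0.0160), and its values in AngII+2W (-0.78, FDR 0.248) and AngII+3W (-1.13, FDR 0.0612) did not pass. The call was lost without either library of CTRL, AngII or AngII+2W, with an FDR of up to 0.135, and Mcam was lower in all 21 fits. Smooth muscle cells are also known to express this gene, and the part of their markers, which fell in AngII, was not tested.

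For the leukocyte side of adhesion, 7 counter-receptor genes were read in RNA of the whole vessel piece. Which cells expressed them was not tested. Itgam, the integrin chain that pairs with Itgb2 to bind ICAM-1, rose from 14.2 and 16.7 CPM in CTRL to 33.7 and 43.1 in AngII, which was 1.31 on the log2 scale (FDR 0.0304). Its level was 22.0 and 35.5 CPM after 2 weeks and 10.7 and 13.2 CPM after 3 weeks, and it fell from AngII to AngII+3W by 1.68 on the log2 scale (FDR 0.0297). Cd44, a hyaluronan receptor that can carry E-selectin ligands, also fell from AngII to AngII+3W, by 1.34 on the log2 scale (FDR 0.0307), from 66.3 and 98.0 CPM to 30.4 and 34.5. The other 5 did not pass in these comparisons. The call of Itgam in AngII was lost without any 1 of the 4 libraries compared (FDR of up to 0.199), and its call between AngII+3W and AngII was lost on leaving out any 1 library other than AngII+3W replicate 2 (up to 0.220). That of Cd44 was lost without either CTRL or AngII+2W library, AngII replicate 2 or AngII+3W replicate 1 (up to 0.208). Both calls between AngII+3W and AngII were also lost with only the 2 groups compared, and that of Cd44 with endothelial scaling. Directions were kept in all 21 fits. The median of the 7 against CTRL was 0.84 at the end of the infusion, 0.36 after 2 weeks and -0.37 after 3 weeks.

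Summed markers of smooth muscle cells, fibroblasts and leukocytes ranged more widely over the libraries than the summed members. The 5 activation genes summed to 63.0 and 69.9 CPM in the CTRL libraries, 71.6 and 115.5 in the AngII libraries, 63.9 and 68.2 in the AngII+2W libraries, and 47.8 and 75.8 in the AngII+3W libraries, each pair given from low to high. Leukocyte markers, 7 genes that were above the floor in every library, summed to 205 to 242 CPM in CTRL, 446 to 826 at the end of the infusion, 337 to 393 in AngII+2W and 182 to 280 in AngII+3W. In AngII, 3 of the 7 passed as higher than CTRL, Ptprc, Cd68 and Adgre1. Estimates were above 0 for 5 of the 7 and below 0 for 2, down to -0.69 on the log2 scale. All 7 were higher in AngII replicate 2 than in replicate 1, the library in which Vcam1, Icam1 and Selp were also highest being replicate 2. Fibroblast markers went from 2299 to 3727 CPM in CTRL to 12691 to 20721 in AngII, where Lum and Col1a1 of the 6 rose, and all 6 were higher in replicate 2. All these calls were lost without either CTRL library or without AngII replicate 2. Those of Cd68, Adgre1 and Col1a1 were also lost without either AngII+2W library, and those of Adgre1 and Col1a1 without AngII replicate 1. Col1a1 lost its call with a replicate block too (FDR 0.05002), where 870 of all genes passed. Directions were kept. The part of these cells in the values of Vcam1, Icam1 and Selp was not tested.

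Smooth muscle markers summed to 7238 to 9213 CPM in CTRL, 1679 to 2122 in AngII libraries, 3479 to 3846 in AngII+2W libraries and 1690 to 3303 in AngII+3W libraries. Of these 6, Myh11, Cnn1, Tagln, Acta2 and Lmod1 fell in AngII, and Cnn1, Tagln and Acta2 in AngII+3W. In AngII these 5 calls were lost without CTRL replicate 1 or either AngII library, and in AngII+3W the 3 calls were lost without CTRL replicate 1, any AngII or AngII+2W library or AngII+3W replicate 1. The 3 were also lost with library totals alone, with only the 2 groups compared, with a replicate block and with endothelial scaling (FDR of up to 0.222). In these 4 settings 1, 0, 4 and 2 of all genes passed in AngII+3W, and few or none passed in the fits without those libraries. The losses in these 4 settings are thus not particular to the 3 genes. Cnn1 and Tagln also lost their calls without CTRL replicate 2. Cnn1 lost its call with DESeq2 size factors too, where 46 of all genes passed. With a library left out, their log2 fold changes ranged from -2.71 to -1.75 (Cnn1), -2.60 to -1.74 (Tagln) and -2.98 to -2.27 (Acta2). The 20 other endothelial genes stayed within 1354 to 1613 CPM over all 8 libraries, a 1.19-fold range, against a 5.49-fold range for smooth muscle markers and 11.9-fold for fibroblast markers. For Selp, which platelets share, 5 platelet markers summed to 29.3 to 39.5 CPM in CTRL, 22.0 to 29.4 in AngII, 23.9 to 50.7 in AngII+2W and 17.03 to 23.0 in AngII+3W, with 1 of the 5 at 0 in AngII+3W replicate 1. The sum of 4 hemoglobin genes, a sign of remaining blood, was 4233 to 4294 CPM in CTRL, 2965 to 3000 in AngII libraries, 967 to 2522 in AngII+2W libraries and 774 to 1161 in AngII+3W libraries. The part of blood in the selectin values was not tested.

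Other lists moved in some groups. Pericyte markers summed to 1323 to 1348 CPM in CTRL and 853 to 913 in AngII+3W, and 0 of the 4 passed. Of 5 lymphatic endothelial markers, Pdpn and Ccl21a rose in AngII, and the list summed to 55.2 to 68.6 CPM in CTRL and 88.1 to 141.6 in AngII. Pdpn is also expressed by fibroblasts, and Ccl21a, listed under 2 identifiers, has near-identical copies between which counting may split reads. Schwann cell markers summed to 22.5 to 42.5 CPM in CTRL, 14.6 to 18.95 in AngII and 70.7 to 71.7 in AngII+3W, with Sox10 and Cdh19 higher in AngII+3W than in AngII. Mesothelial markers summed to 35.6 to 50.1 CPM in CTRL and 57.6 to 61.1 in AngII, where Msln rose. The platelet marker Pf4 was lower in AngII+3W than in AngII, where estimates of the 5 platelet markers were below 0 for 3 and above 0 for 2. Each call of this paragraph was lost without AngII replicate 2, and no direction turned when a library was left out. Of the 8 fits without 1 library, Pdpn lost its call in 3, Ccl21a and Cdh19 in 5, Msln in 6, Pf4 in 7 and Sox10 in 8. With all libraries, Pf4 lost its call in 4 of 12 alternative settings, and Msln, Sox10 and Cdh19 each in 2. Against CTRL, 0 of the 5 adipocyte, 5 cardiac and 6 skeletal muscle markers passed.

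**Figure D4:**
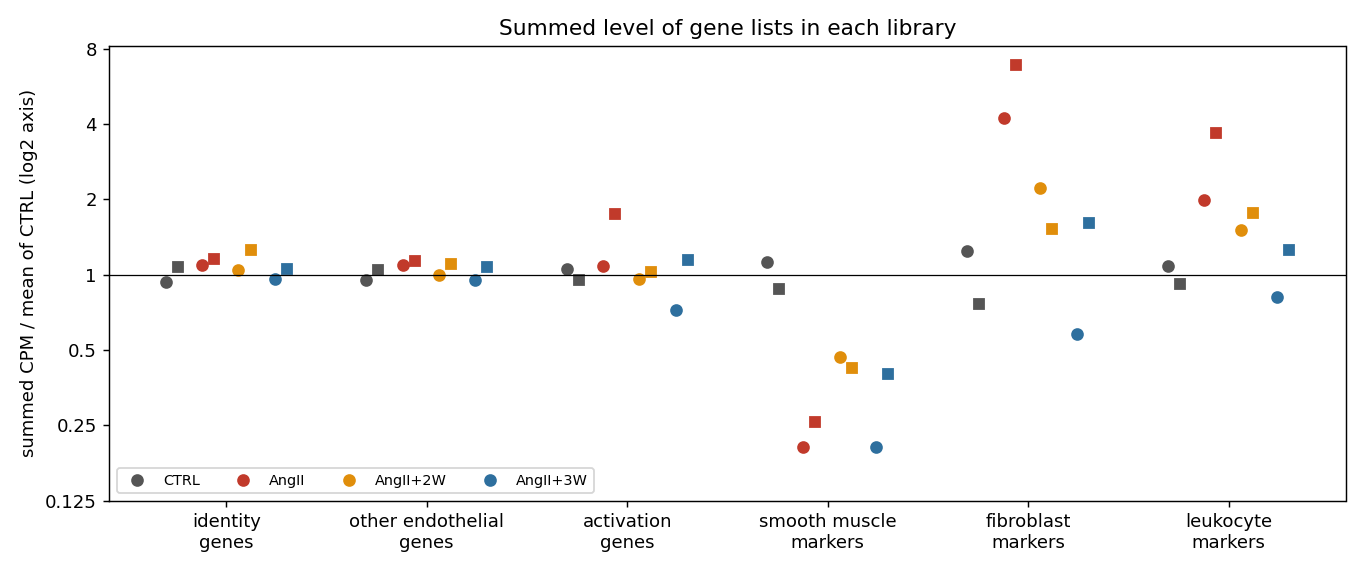
Summed CPM of 6 gene lists in each library divided by the mean of the CTRL libraries, on a log2 axis, with colours for the 4 groups, circles for replicate 1 and squares for replicate 2. Identity genes and 20 other endothelial genes stay near 1 in all groups, activation genes are highest in AngII replicate 2, smooth muscle markers lie below 1 in every AngII-treated library and fibroblast and leukocyte markers are highest in AngII.

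Profiles over the 8 libraries were compared as the mean absolute difference of centred log2 CPM among 11716 genes of at least 5 CPM on average. Nearest to the mean of the 5 identity genes were Vps35l (0.0396), the endothelial gene Mmrn2 (0.0405) and Git2 (0.0457). Among the nearest to Vcam1 were S1pr2 (0.0530) and Abi3bp (0.0684). Kdr had Poln (0.0728), the endothelial transcription factor gene Sox18 (0.0865) and Cd300lg (0.0865) nearest, and Tek had Lhcgr (0.0427), Fbxl17 (0.0548) and Paxbp1 (0.0586). For Icam1 they were Rab4b (0.0492), Zfp516 (0.0591) and Abr (0.0606), and for Sele the nearest gene, Phgdh, was at 0.237. The genes share libraries and depth, and the distances are a description.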

How the data were processed

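RNA of aortic tissue was depleted of ribosomal RNA and sequenced as 8 libraries in 1 lane. The authors estimated expected counts with Salmon against Ensembl mouse cDNA (GRCm38) in the ARMOR workflow and summed them to genes with tximeta, and the deposited table holds whole numbers without normalization or filter. No column was left unmapped to a sample. Groups and replicate numbers were taken from the labels. Low counts were removed with filterByExpr, and all 8 libraries were fitted in 1 model with edgeR 4.0.16 (R 4.3.3), TMM factors and the quasi-likelihood F test in its older form, which left 4 residual degrees of freedom. Two-sided p-values were adjusted by Benjamini and Hochberg across the 17182 genes (FDR, threshold 0.05). The standard error is the absolute log2 fold change divided by the square root of F, and intervals are at 95%. CPM uses TMM-normalized totals, and 3 counts set the floor of detection. Totals of 18130441 to 21498200 counts set the precision, and the floor covers counting error only. The fit was tested on simulated data. Positions and transcript lengths came from GENCODE M21 (GRCm38), which held 35437 of the 35896 identifiers, promoters from RefSeq, and copies were searched with BLAST 2.17.0. Members and lists were chosen with earlier results of these data known. All members were named, and of the other lists the genes with an FDR below 0.05 in any comparison, and the 3 genes nearest to a member in profile. Some items that these rules select are not reported here. Alternatives were DESeq2 size factors, library totals alone, 2 other filters, DESeq2 1.42.0, the likelihood ratio test, limma-voom (limma 3.58.1), newer and robust quasi-likelihood fits, only the 2 groups compared, a replicate block, and leaving out each library. Scaling to 20 other endothelial genes was added after seeing the data.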

Additional observations from a re-analysis of the deposited data

How the results depend on the processing

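None of the 10 members passed the threshold in any of the 120 pairs of 20 alternative settings and 6 comparisons, by edgeR, DESeq2 or limma-voom. The smallest FDR of a member was 0.0751, for Vcam1 between AngII+3W and AngII without AngII+3W replicate 2. The labels do not say whether replicate numbers pair the mice of different groups. The differences between replicates correlated between groups by 0.00694 to 0.459 over 11716 genes. With a replicate block, 0 members passed in each comparison, and 870, 0 and 4 genes differed from CTRL after the infusion and 2 and 3 weeks later. Counts over all genes were less steady. With other tools, filters and scalings they ranged from 622 to 1711 for AngII, 0 to 420 for AngII+2W and 0 to 585 for AngII+3W. Without 1 library they ranged from 0 (AngII replicate 2 left out, with 2280 genes at an unadjusted p below 0.05) to 1504 (AngII+3W replicate 1 left out) for AngII. They reached 261 and 275 for AngII+2W without AngII+3W replicate 1 or 2, and ranged from 0 to 463 for AngII+3W, where 463 came without its replicate 2 and 1 without its replicate 1. Of the other lists, every gene that passed kept its direction in all 21 fits, and each lost its call without AngII replicate 2.

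Scaling to the summed counts of 20 other endothelial genes was chosen after seeing the data. It moved the median of all genes to -0.17 in AngII against CTRL and to 0.18 in AngII+3W against AngII. Under it the median log2 fold change of the identity genes was -0.0866 in AngII against CTRL and 0.00467 in AngII+3W against AngII, with Vwf at -0.0866 and Tek at -0.0887 in AngII and Pecam1 at -0.00889 in AngII+2W. Relative to the shifted medians of all genes, the median of the identity genes was higher in AngII and lower in AngII+3W against AngII. The same held with TMM factors, and single genes did not all follow the median. With TMM factors, Pecam1 was at -0.12 in AngII against CTRL, below the -0.01 of all genes. Tek was at 0.35 in AngII+3W against AngII, above the 0.04 of all genes.

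Leaving out each library in turn could turn the sign of members whose value lay near 0. A lone library was then assumed to vary like the other groups. In AngII against CTRL the log2 fold change ranged from -0.15 to 0.36 for Vwf, from -0.0900 to 0.75 for Kdr, from -0.00260 to 0.15 for Tek, from -0.0944 to 0.47 for Icam1, from -1.05 to 0.30 for Sele and from -0.55 to 0.11 for Edn1. In AngII+2W it ranged from -0.0530 to 0.17 for Pecam1, from -0.10 to 0.41 for Vwf, from -0.13 to 0.70 for Kdr, from -0.0559 to 0.26 for Vcam1 and from -0.00980 to 0.93 for Selp. In AngII+3W it ranged from -0.42 to 0.10 for Pecam1, from -0.22 to 0.51 for Cdh5, from -0.50 to 0.00782 for Vwf, from -0.24 to 0.59 for Kdr, from -0.52 to 0.0374 for Icam1, from -0.39 to 0.26 for Vcam1 and from -0.63 to 0.65 for Selp. Between AngII+3W and AngII+2W, Vcam1 ranged from -0.47 to 0.17. Median log2 fold changes ranged from -0.00260 to 0.14 (identity) and from -0.0944 to 0.47 (activation) in AngII against CTRL, from -0.0178 to 0.11 and from -0.65 to -0.0736 in AngII+2W against AngII, from -0.0359 to 0.34 (identity) and from -0.63 to 0.0374 (activation) in AngII+3W against CTRL, from -0.29 to -0.10 and from -1.07 to -0.0549 in AngII+3W against AngII, and from -0.35 to -0.0850 and from -0.47 to 0.21 in AngII+3W against AngII+2W. The cause of these movements was not tested, beyond the construction with 1 library less. Sele, at 12 to 72 counts, was the least precise member.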
